A study of Mus musculus with 8 samples.

Results

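The Hox cluster genes were described in explanted embryonic mouse lungs. Members were all genes whose symbol is Hoxa, Hoxb, Hoxc or Hoxd followed by a number and nothing more, and each was read from its brightest spot on the array. There were 38 members with a named spot, out of 24304 genes measured in all. Lungs of the strain C57bl/6J were taken at E12.5, while the airways branch, and were cultured on filters in medium with serum. The treated lungs received IQ1 at 10 µM, a small molecule used to disturb the interaction of ß-catenin with its co-activator EP300, and the control lungs received vehicle. The vehicle is PBS in the labels, but the methods used DMSO to dissolve IQ1 and allow for both solvents, so that solvent and IQ1 cannot be told apart if they differed. Descriptions of the treated samples also mention inhibition of FGFR2b, and no transgene is given in the labels of these samples. At 9 h there were 3 IQ1 arrays (n = 3) and 3 control arrays (n = 3), and the 24 h culture gave 1 array from pooled lungs for each condition. The sources used here do not say whether the replicates at 9 h came from separate litters, and p-values measure only the spread between these samples. RNA was taken from the homogenised organ, so that each value averages over epithelium, mesenchyme and all other cells, and fewer cells of a type cannot be told apart from less RNA per cell.

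Hox genes encode homeodomain transcription factors that give cells their position along the body axis. They lie in clusters (Hoxa to Hoxd), and within a cluster the low-numbered genes are switched on earlier and in more anterior tissue, and the high-numbered genes later and in more posterior tissue, an order called colinearity. Genes of the same number in different clusters are paralogues. In the mouse lung, Hox genes of low and middle number are known mainly from the mesenchyme, and loss of Hoxa5 disturbs the formation of the trachea and lung. Here anterior stands for paralogue groups 1 to 4 (11 members), central for groups 5 to 8 (11 members) and posterior for groups 9 to 13 (16 members).

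Levels are log2 intensities after quantile normalisation, and a difference is IQ1 minus control on that scale. Spots differ in how well they bind their transcript, and a level was therefore placed against the genes of its own array and not read as an amount of transcript. The median gene had a mean level of 6.72, and the lower quartile of the gene means was 4.74. Control replicate 2 at 9 h stood apart before any Hox gene was considered. Over all spots it correlated with each of the other 7 at Pearson's r of 0.583 to 0.602, against 0.953 to 0.982 among those 7. Over the 38 Hox genes the corresponding values were 0.288 to 0.328 and 0.919 to 0.979, where points share arrays and clusters. Comparisons at 9 h are therefore given with all 6 arrays and with 5 arrays, without control replicate 2, and levels over the other 7 arrays stand beside those of that array.

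The explants carried anterior and central Hox transcripts, while most posterior genes gave dim spots. By the mean over 8 arrays, 14 of the 38 members lay above the median gene, namely 7 of 11 anterior, 7 of 11 central and 0 of 16 posterior members. These were Hoxa2 to Hoxa7, Hoxb2 to Hoxb7, Hoxc4 and Hoxc5, and they are called the bright members below. Hoxc5 was among them only through control replicate 2, where its level was 12.04, while it lay between 5.89 and 6.77 on the other 7 arrays. When the mean over those 7 arrays was used, Hoxc5 dropped out and Hoxb9 entered, which left the number at 14. On all 7 arrays 10 members, all of them bright, stayed above the median gene (44.4% of all genes and 88.6% of genes above the median gene did so), 22 stayed below it (41.5%) and 10 stayed below the lower quartile (14.5%), 8 of the last being posterior. The median of the 7-array means was 8.55 for anterior, 6.83 for central and 3.95 for posterior members.

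**Figure D1:**
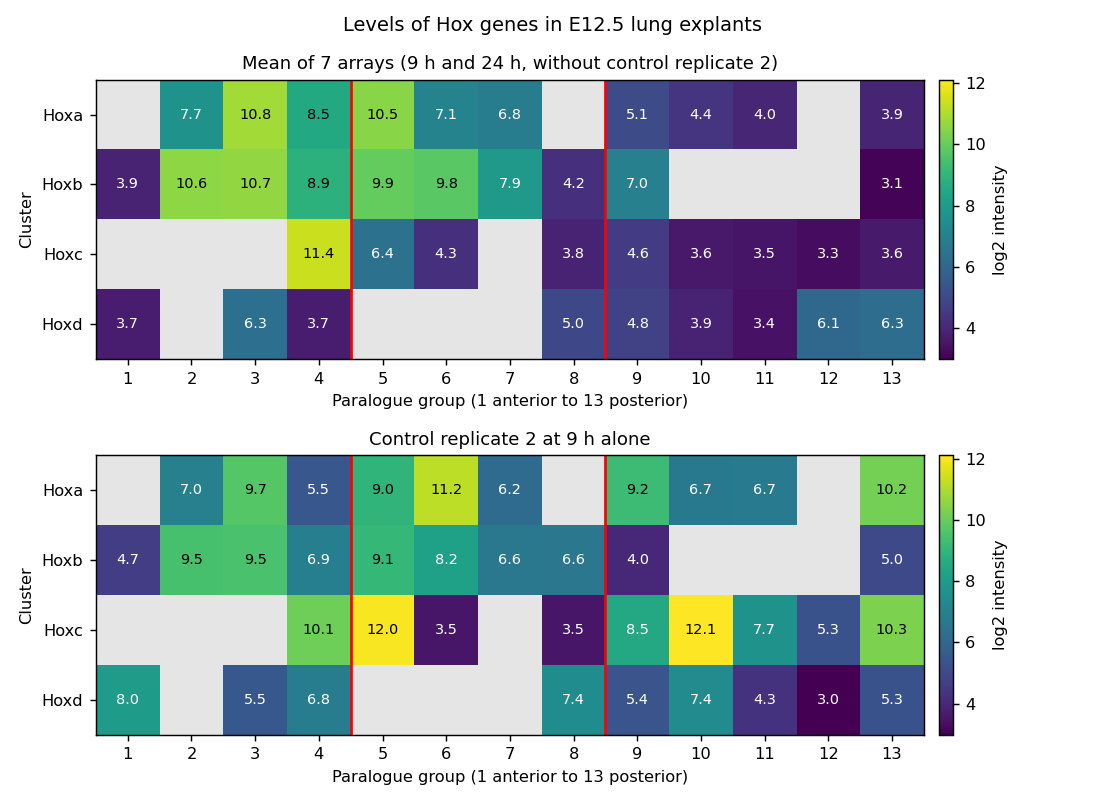
Level of each Hox gene by cluster (rows) and paralogue group (columns), as log2 intensity, averaged over 7 arrays in the upper panel and on control replicate 2 at 9 h alone in the lower panel. Red lines divide anterior, central and posterior groups, and grey cells have no measured gene. In the upper panel the bright cells lie in groups 2 to 7 of clusters A and B and at Hoxc4, whereas in the lower panel Hoxc5, Hoxa6, Hoxc10, Hoxc13 and Hoxa13 are among the brightest.

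The clusters differed in how many bright members they held. Clusters A and B each had 6 of 10 members above the median gene, cluster C had 2 of 9 and cluster D had 0 of 9. In cluster A, Hoxa3, which patterns the pharyngeal arches and thymus, gave levels of 10.80, 10.76 and 11.06 with IQ1 at 9 h and of 11.26 and 11.30 in control replicates 1 and 3. Hoxa5, the member best known from lung development, gave 10.68, 10.28 and 10.18 with IQ1 and 10.56 and 10.71 in those controls. Both were at 9.71 and 8.95 on control replicate 2, below every other array. In cluster B, Hoxb3 ranged from 9.81 to 11.12 over the 7 arrays and Hoxb2 from 9.33 to 11.38. Hoxb5, known from the mesenchyme of the branching lung, ranged from 8.74 to 10.75, and Hoxb6 from 8.93 to 10.48. Hoxc4 gave the highest 7-array mean of any Hox spot, 11.37, although its neighbours Hoxc5 (6.40) and Hoxc6 (4.26) were below the median gene. Hoxd3 was the brightest anterior gene of cluster D, with 7.64, 6.99 and 7.26 under IQ1 at 9 h, 6.45 and 7.24 in control replicates 1 and 3, and only 4.68 and 4.04 in the IQ1 and control arrays at 24 h.

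Posterior members were dimmer as a group, and the highest 7-array mean among them was 6.95. It belonged to Hoxb9, a gene of thoracic identity, with values of 6.70, 7.64 and 6.12 with IQ1 and 6.31 and 6.71 in control replicates 1 and 3. The other spot of Hoxb9 was dim, with a 7-array mean of 3.82. Hoxd13 and Hoxd12, which are best known from the distal limb, followed at 6.26 and 6.08. Hoxd13 lay between 5.84 and 6.53 and Hoxd12 between 5.68 and 6.65 on the 7 arrays, so that the ranges of these 3 genes overlapped. The other 13 posterior members had 7-array means between 3.09 (Hoxb13) and 5.11 (Hoxa9).

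Control replicate 2 gave another pattern. On this array 22 members exceeded the median gene, 8 of them posterior, against 49.3% of all genes, and the posterior median was 6.70. Of the bright members 11 exceeded it there (67.9% of genes above the median gene). Hoxc10, a gene of lumbar and hindlimb identity, read 12.12 there and 3.12 to 4.02 on the other 7 arrays. Hoxc13, known from hair and nail, read 10.32 against 2.71 to 4.46, and Hoxa13, known from the digits and hindgut, read 10.20 against 2.89 to 4.73. The high value of Hoxc13 was not shared by its other spot, which read 4.46 there and 2.97 to 3.95 on the other 7 arrays. Central Hoxa6 read 11.19 against 5.88 to 8.01. In the opposite direction, Hoxa4 read 5.47 against 7.61 to 9.25 and Hoxd12 read 2.98 against 5.68 to 6.65. Of 6 marker genes of limb, body wall and hindgut, the limb gene Shox2 read 12.51 on that array against 3.53 to 5.69 on the others. Lmx1b, Myog and Myod1, of the same list, read lower there than on the other 7 arrays, at 4.45, 4.38 and 11.05. En1 read higher there, at 5.25 against 2.81 to 3.80, and Pitx1 read 3.05, within its range on the others. The mean over the list was 6.78 there against 6.83 and 7.03 in control replicates 1 and 3. The epithelial list had a mean level of 9.35 on control replicate 2 and 9.46 to 10.28 elsewhere. Its members moved both ways there, the lung and thyroid factor Nkx2-1 reading 9.19 (10.35 to 11.42 elsewhere), Foxa1 5.83 (8.66 to 9.92), Krt8 5.46 (8.27 to 10.07) and Cdh1 8.53 (4.07 to 6.08). The part of other tissue or of a failed array in this pattern was not tested.

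RefSeq promoter windows of 300 bases around the gene start (build GRCm38.p6) could be matched for 22 of the 38 members, some with more than 1 window, including 7 of the 14 bright ones. The bright members' windows that held a searched motif are printed because they show the sequence next to genes that were read brightly in the explants. Windows are 5′ to 3′ on the strand of the gene, and capitals mark the motif. Hoxa2 (chr6:52164782-52165081, minus strand) held a Hox-Pbx site, TGATNNAT on either strand. Hoxa5 (chr6:52204538-52204837, minus strand), Hoxb4 (chr11:96318017-96318316, plus strand) and Hoxc4 (chr15:103034145-103034444, plus strand) each held AGGTCA, the half-site of retinoic acid receptors, again on either strand. The Hoxc4 window lies at a start inside the annotated gene.
Hoxa2: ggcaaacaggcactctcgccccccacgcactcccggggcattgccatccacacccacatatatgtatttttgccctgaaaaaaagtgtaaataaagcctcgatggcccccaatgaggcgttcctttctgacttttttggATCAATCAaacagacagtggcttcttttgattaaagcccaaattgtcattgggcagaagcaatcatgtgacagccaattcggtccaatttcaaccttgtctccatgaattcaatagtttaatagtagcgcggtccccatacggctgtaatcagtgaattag
Hoxa5: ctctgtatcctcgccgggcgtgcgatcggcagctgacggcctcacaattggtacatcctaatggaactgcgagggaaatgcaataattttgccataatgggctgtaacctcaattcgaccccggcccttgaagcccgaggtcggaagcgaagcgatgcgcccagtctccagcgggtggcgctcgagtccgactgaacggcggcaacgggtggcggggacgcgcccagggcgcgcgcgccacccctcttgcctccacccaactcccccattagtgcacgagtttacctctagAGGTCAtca
Hoxb4: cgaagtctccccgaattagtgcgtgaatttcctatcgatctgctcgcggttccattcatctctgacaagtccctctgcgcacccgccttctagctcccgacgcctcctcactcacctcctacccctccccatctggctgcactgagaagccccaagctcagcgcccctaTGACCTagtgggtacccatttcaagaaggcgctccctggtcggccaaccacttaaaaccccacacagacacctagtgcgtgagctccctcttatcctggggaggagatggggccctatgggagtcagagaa
Hoxc4: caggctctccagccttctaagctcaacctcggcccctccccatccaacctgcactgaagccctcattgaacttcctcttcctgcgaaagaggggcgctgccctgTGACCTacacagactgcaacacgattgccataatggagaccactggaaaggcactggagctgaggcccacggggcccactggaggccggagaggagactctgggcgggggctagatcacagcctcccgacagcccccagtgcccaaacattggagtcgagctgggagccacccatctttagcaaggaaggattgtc

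Across the windows of all Hox members, AGGTCA was found in 3 of 7 windows of bright and 4 of 17 windows of other members, against 16.3% of 32851 windows of all genes. The Hox-Pbx letters were found in 1 of 7 and 3 of 17, against 8.85%. CTTTGA, the core of the TCF/LEF site through which ß-catenin acts, was searched on both strands and found in 0 of 7 and 4 of 17, against 16% of all windows. None of the 3 motifs contains another. These are matches of letters in a short window only.

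The comparison at 9 h asked which Hox genes differ when ß-catenin and EP300 are disturbed. No Hox gene passed limma's moderated test over all genes. With 5 arrays the count was 0 of 38 members, against 3 of 24304 genes, all lower with IQ1 (0.0123%), and the smallest adjusted p of a member was 0.325 (limma, Benjamini-Hochberg). With 6 arrays it was 0 of 38 and 0 of all genes (0%), and the smallest adjusted p of a member was 0.73. At an unadjusted p under 0.05, 4 members were lower and 3 higher with 5 arrays (4.14% and 4.24% of all genes), and 2 were lower and 0 higher with 6 arrays (0.889% and 1.13%). An exact permutation test of a single gene could not go below p = 0.1 in either design.

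Without control replicate 2, the Hox differences leaned to lower values in the anterior and central genes and among the bright members, and no single gene passed. The median over the 38 members was −0.20, against 0.01 over all genes, and 24 of 38 were lower with IQ1 (48.4% of all genes). By region, 8 of 11 anterior, 10 of 11 central and 6 of 16 posterior members were lower, with medians of −0.41, −0.25 and 0.10. Bright members were all anterior or central, so that region and brightness went together. Of the 24 members not above the median gene 12 were lower and 12 higher (46.9% of genes not above it were lower). Over all 38 members, the groups did not overlap in 10 that were lower and 6 that were higher, against 13.1% of all genes in each direction. Among the 14 bright members, 12 were lower, the median difference was −0.44 and the range was −1.07 to 0.52, against a median of 0.00 and 49.8% lower over the 12152 genes above the median gene. In 7 of these 14 all IQ1 arrays lay below both controls (16.0% of genes above the median gene), and in 2, Hoxc4 and Hoxc5, all lay above both (14.6%). Adjusted p-values of the 14 ran from 0.458 to 0.990, so that none of these differences passed singly. At an unadjusted p under 0.05 there were 2 lower and 0 higher (3.48% and 3.21%), Hoxb7 and Hoxa6. With the 7-array mean as the measure of brightness, which takes out Hoxc5, 12 of 14 were lower (49.7% of genes above the median gene by that mean). The groups then did not overlap in 7 lower members and 1 higher member, Hoxc4. Of the 12152 genes above the median gene by that mean, they did not overlap in 1947 lower and 1762 higher. Members share arrays and clusters, so that their signs are not independent. Here and at 24 h the counts of members describe these arrays and are no test.

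Signs of single bright members depended on control replicate 2. With all 6 arrays, 5 of the 14 bright members were lower and 9 higher, with a median of 0.09 and a range of −2.01 to 0.94, and the groups did not overlap in 1 lower member, Hoxa6, and 1 higher member, Hoxc4 (4.47% and 11.5%). At an unadjusted p under 0.05 there were 0 in either direction (0.486% and 0.806%). Genes above the median gene had a median of 0.44 in the same fit, and 27.5% of them were lower, so that the bright Hox median lay below that of the genes of like brightness with 6 arrays as with 5. With control replicate 2 kept in, 11 of the 14 were lower after each array was centred on the median bright gene (median −0.30), and 12 were lower under limma's array weights (median −0.35). Without control replicate 1 the 6-array fit had 2 lower (median 0.39) and without control replicate 3 it had 3 lower (median 0.35). Over all 38 members the 6-array median was −0.23, against 0.16 over all genes, and 23 were lower (42.8%). Groups did not overlap in 4 lower members and 1 higher member (5.25% and 8.33%).

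**Figure D2:**
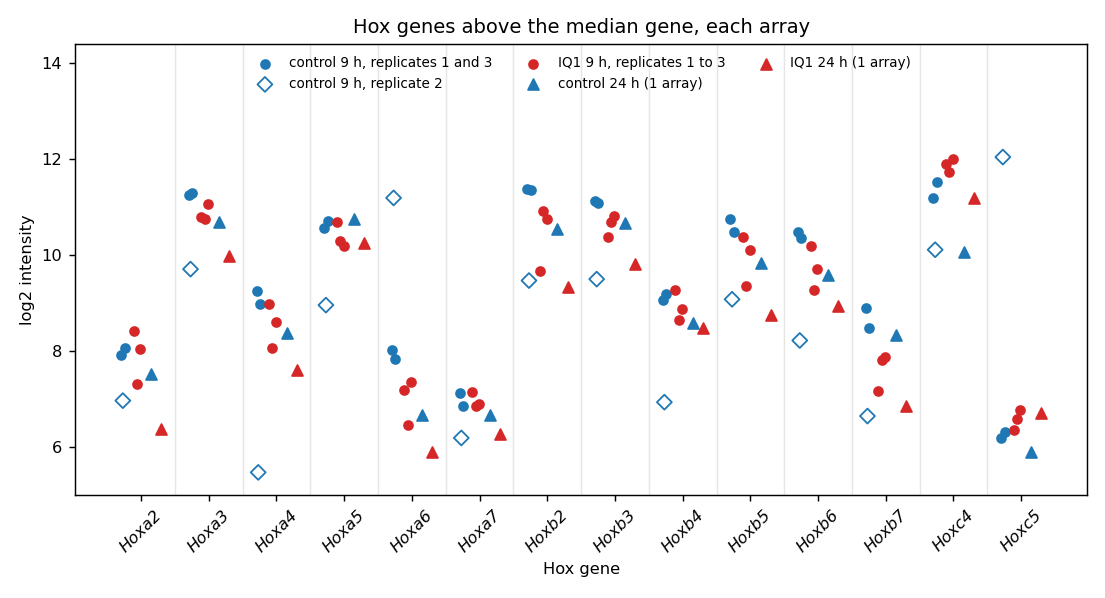
Log2 intensity of the 14 bright Hox genes (horizontal axis) on each of the 8 arrays, with control arrays in blue, IQ1 arrays in red, control replicate 2 as an open diamond and the arrays at 24 h as triangles. The open diamond lies below all other 9 h points in 12 of the 14 genes and above them in Hoxa6 and Hoxc5.

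Hoxb7 had the smallest p of the bright members with 5 arrays. This gene, a central member whose promoter is active in the ureteric bud, read 7.17, 7.80 and 7.88 with IQ1, 8.89 and 8.49 in control replicates 1 and 3, and 6.64 in control replicate 2. All IQ1 values lay below the first 2 controls and above the last one. The means were 7.62 ± 0.39 (SD, n = 3) and 8.69 ± 0.28 (SD, n = 2), a difference of −1.07 (SE 0.31, adjusted p = 0.458, limma) with 5 arrays and of −0.39 (SE 0.67) with 6. Hoxb2, needed for the facial motor nerve, read 9.67, 10.91 and 10.74 with IQ1 against 11.38, 11.36 and 9.47. Its difference was −0.92 (SE 0.41, 95% interval −1.91 to 0.06) with 5 arrays and −0.29 with 6. IQ1 replicate 1 was the lowest of the treated arrays in both genes.

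Hoxb5 and Hoxb6 also lay below control replicates 1 and 3 on every IQ1 array, by less. Hoxb5 read 10.38, 9.36 and 10.10 with IQ1 and 10.75, 10.48 and 9.08 in controls 1, 3 and 2. Hoxb6 read 10.18, 9.26 and 9.72 against 10.48, 10.36 and 8.22. Their differences with 5 arrays were −0.67 and −0.70, and IQ1 replicate 2 was the lowest treated array in both. Hoxb3 read 10.37, 10.69 and 10.81 against 11.12, 11.09 and 9.50, a difference of −0.48. Hoxb4, which is studied mostly in blood stem cells, read 9.26, 8.64 and 8.87 against 9.05, 9.18 and 6.93, and there the groups overlapped (−0.19).

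In cluster A, Hoxa6 had the lowest p of the bright members in the 6-array fit and the second lowest, after Hoxb7, with 5 arrays. It read 7.19, 6.46 and 7.34 with IQ1, 8.01 and 7.84 in control replicates 1 and 3 and 11.19 in control replicate 2, so that its difference was −0.93 (SE 0.32) with 5 arrays and −2.01 (SE 0.96, adjusted p = 0.73, limma) with 6. The treated values lay below every control in both fits. Hoxa3 differed by −0.41 and Hoxa4 by −0.57 with 5 arrays, Hoxa4 reading 8.98, 8.05 and 8.59 against 9.25 and 8.97. Hoxa3 did not overlap between IQ1 and controls 1 and 3, and Hoxa4 did. Hoxa5, Hoxa2 and Hoxa7 differed by −0.25, −0.08 and −0.03, less than their standard errors or close to them. Hoxa2, which sets the identity of the hyoid arch, read 8.41, 7.31 and 8.03 against 7.92 and 8.06, and Hoxa7 read 7.14, 6.84 and 6.88 against 7.13 and 6.84.

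Hoxc4 stood on the other side. It read 11.91, 11.74 and 12.00 with IQ1 and 11.20, 11.53 and 10.11 in controls 1, 3 and 2. Every treated array was above every control, and the difference was 0.52 (SE 0.23, adjusted p = 0.624, limma) with 5 arrays and 0.94 (SE 0.48) with 6. Hoxc5 read 6.36, 6.57 and 6.77 against 6.19 and 6.30, a difference of 0.32 (SE 0.23) with 5 arrays, and with control replicate 2 at 12.04 the 6-array difference was −1.61 (SE 1.59). Its place among the bright members came from that array alone, and on the other 7 it lay near the median gene.

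Dim members gave the smallest p-values, close to the floor of the arrays. Hoxd1, an anterior gene known from sensory neurons, read 4.61, 4.16 and 4.20 with IQ1 and 3.35 and 2.96 in control replicates 1 and 3. Its difference of 1.17 (SE 0.26, adjusted p = 0.325, limma) had the smallest p among the 38 with 5 arrays, but control replicate 2 read 8.02. Hoxb1, a hindbrain gene, read 3.81, 2.73 and 3.13 against 4.79, 4.43 and 4.66, and its 3 controls lay together. It differed by −1.39 (SE 0.36) with 5 arrays and by −1.40 (SE 0.42, adjusted p = 0.73) with 6, and under limma's array weights it was the 1 member that passed (−1.54, adjusted p = 0.038), with 233 of all genes (0.959%). Hoxb8 read 4.32, 3.44 and 3.58 against 5.68, 4.48 and 6.59, a difference of −1.30 with 5 arrays and −1.81 with 6. Hoxc12 read 3.57, 3.42 and 3.70 against 2.85 and 2.97 (0.66) with 5 arrays, and 5.29 in control replicate 2. All 4 lay below the lower quartile on at least 6 of the 8 arrays.

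**Figure D3:**
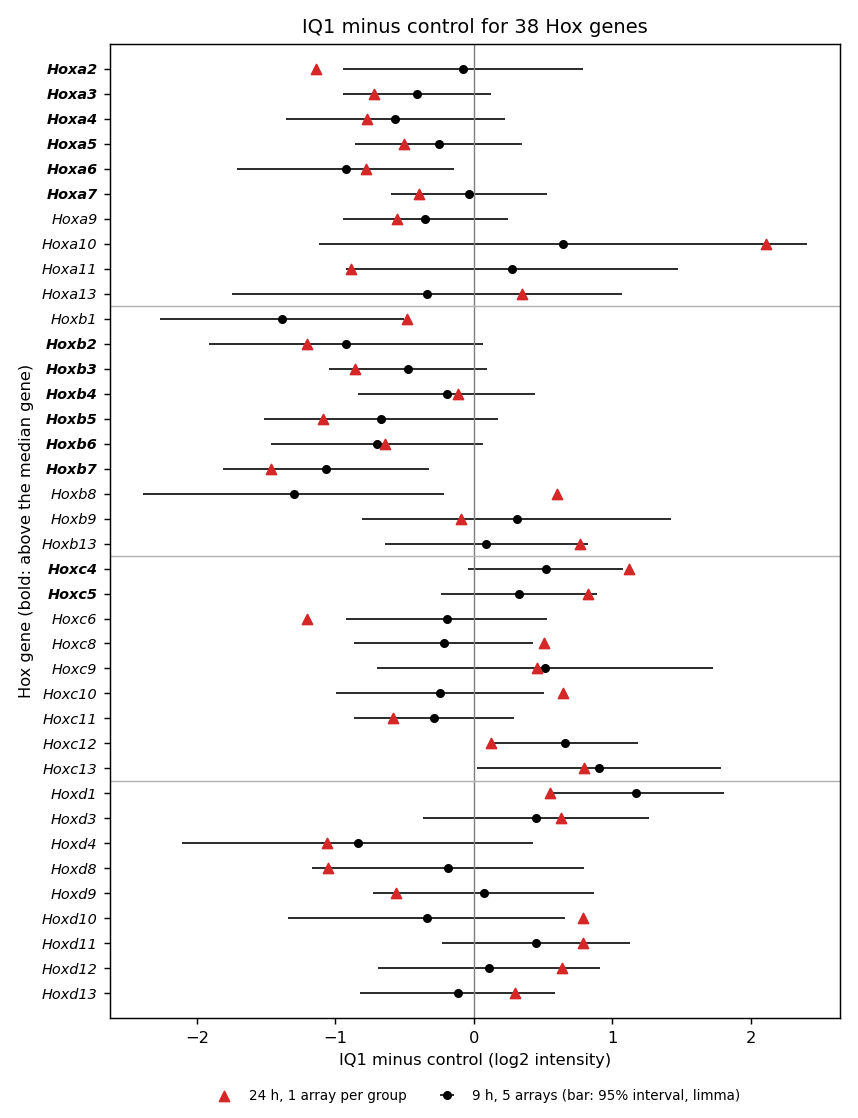
IQ1 minus control on the log2 scale (horizontal axis) for 38 Hox genes by cluster, with 5 arrays at 9 h as black points with 95% intervals from limma and with 1 array per group at 24 h as red triangles. Bold names mark the bright members, of which 12 lie left of 0 at both times and Hoxc4 and Hoxc5 lie right of 0 at both.

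At 24 h there was 1 array per group, so that differences have no replicate check and no test. The median over the 38 members was −0.26, against 0.02 over all genes, and 21 were lower (48.6% of all genes). Past a difference of 1 there were 7 members lower and 2 higher, against 4.97% and 5.64% of all genes. The 14 bright members had a median of −0.75, with 12 lower (50.2% of genes above the median gene). With brightness from 7 arrays, 13 of 14 were lower (50.3% of genes above the median gene by that mean). Past a difference of 1, 4 of the 14 bright members were lower and 1 higher (2.02% and 2.25%). Those 4 were Hoxb7 (−1.47), Hoxb2 (−1.21), Hoxa2 (−1.14) and Hoxb5 (−1.09), and the higher one was Hoxc4 (1.12). Hoxb7 read 6.86 with IQ1 and 8.33 in the control, Hoxb2 read 9.33 and 10.54, and Hoxc4 read 11.18 and 10.06. Posterior members, none of them bright, had a median of 0.40, and 11 of 16 were higher. Of all 24 members not above the median gene 15 were higher, against 6454 of 12152 genes not above it.

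With 5 arrays at 9 h, the bright members took the same sign at both times, with Hoxa2 (−0.08) and Hoxa7 (−0.03) near 0 at 9 h. With all 6 arrays they did not, since 9 of the 14 were higher at 9 h and 12 were lower at 24 h. Of all 38 members, 18 were lower at both times and 11 higher at both (27.9% and 30.9% of all genes). Of the 14, 12 were lower at 9 h with 5 arrays and at 24 h (31.7% of genes above the median gene), and Hoxc4 and Hoxc5 were higher at both (31.6%). With brightness from 7 arrays, 12 of 14 were lower at both and 1, Hoxc4, was higher at both. Of the 12152 genes above the median gene by that mean, 3841 were lower and 3838 higher at both. Smaller negative values at 24 h were those of Hoxb3 (−0.86), Hoxa6 (−0.78), Hoxa4 (−0.77), Hoxa3 (−0.72), Hoxb6 (−0.64), Hoxa5 (−0.50), Hoxa7 (−0.40) and Hoxb4 (−0.11), and Hoxc5 differed by 0.83. Among the 24 dim members 6 were lower and 9 higher at both times. Of those named here, Hoxb8 differed by 0.60 at 24 h, Hoxb1 by −0.48, Hoxd1 by 0.55, Hoxc12 by 0.12, Hoxb9 by −0.09, Hoxd12 by 0.63 and Hoxd13 by 0.30. The difference between the 24 h and 9 h effects was tested over 7 arrays, with lone arrays assumed to vary like those at 9 h. It called 0 members and 0 genes, with a smallest adjusted p of 0.9999 (limma), and 0 members had an unadjusted p under 0.05 (4.07% of all genes).

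Culture time also went with the level of these genes in controls. The control at 24 h read below control replicates 1 and 3 at 9 h in 23 of the 38 members (39.2% of all genes). Among the 14 bright members this held for 13 (44.9% of genes above the median gene), the median difference being −0.56. Control replicate 2, left out of these counts, read below the 24 h control in every bright member except Hoxa6, Hoxc4 and Hoxc5. Against that array most bright members were thus higher at 24 h, and its Hoxc4 level was 10.11. Hoxc4 went from 11.20 and 11.53 to 10.06, a difference of −1.30, and Hoxa5 was the exception, with 10.56 and 10.71 at 9 h and 10.75 at 24 h. The control at 24 h came from pooled lungs in another experiment, and time, pooling and experiment cannot be told apart.

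Where a gene had more than 1 spot, the spots could be set side by side. The 3 spots of Hoxb3 differed by −0.48, −0.50 and −0.56 at 9 h with 5 arrays and by −0.86, −0.61 and −0.97 at 24 h, and those of Hoxa3 by −0.41, −0.29 and −0.84 and by −0.72, −0.58 and −0.27. The 2 spots of Hoxb2 differed by −0.92 and −0.46 at 9 h and by −1.21 and −0.20 at 24 h. The dimmer one read 9.26, 8.46 and 8.63 with IQ1 and 9.19 and 9.29 in control replicates 1 and 3. Its groups therefore overlapped at 9 h, and it did not pass a difference of 1 at 24 h. For dim Hoxb9 the spots had opposite signs at 9 h (0.31 and −0.81), and the difference of 2.11 of Hoxa10 at 24 h was not shared by its other spot (−0.18). Hoxa3 and Hoxb3 have long annotated transcripts that run across their neighbours, and which transcript a spot reads was not tested.

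Noncoding transcripts of the clusters were measured for 6 genes. Hoxaas2, an antisense transcript beside Hoxa3, was bright, with 11.16, 10.94 and 11.21 under IQ1 and 11.40 and 11.35 in control replicates 1 and 3, a difference of −0.27 at 9 h and of −0.08 at 24 h. Hoxb5os, antisense to Hoxb5, had spots of opposite sign, the brighter differing by 0.11 and 0.31 and the other by −0.21 and −0.32, so that no direction is given. Hottip, a transcript of the posterior end of cluster A, was dim, with a 7-array mean of 4.47. Hoxa11os, which lies beside Hoxa11 in that cluster, was brighter and read 7.39 to 7.93 on the 7 arrays. The 7-array means of its spots were 7.67 and 7.48, against 3.96 for Hoxa11.

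Cofactors and regulators of Hox genes were read from lists. TALE homeodomain proteins bind DNA together with Hox proteins, and 10 of 11 were measured, 7 of them above the median gene. None passed at 9 h with 5 arrays, 4 were lower and 6 higher, and the median was 0.05. Meis1 read 11.18, 11.38 and 11.52 with IQ1 and 11.62 and 11.73 in control replicates 1 and 3. Pbx4 and Pbx3 differed by 0.47 and 0.41 with 5 arrays and by −1.62 and 1.29 with 6. All 16 chromatin regulators of Hox clusters were above the median gene, and the list had a median of 0.02 with 7 lower and none passing. Ezh2, the methyltransferase of the Polycomb repressive complex that silences Hox genes, differed by −0.46 at 9 h and −0.90 at 24 h, and Bmi1, of the other Polycomb complex, by −0.33 and −0.77. Caudal and ParaHox genes, relatives of the Hox genes, were dim, with 0 of 6 above the median gene.

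Retinoic acid switches on anterior Hox genes in many tissues, and 11 of 13 genes of its pathway were measured. None passed, with 8 higher and 3 lower at 9 h with 5 arrays and a median of 0.21, and 9 of 11 were higher at 24 h, with a median of 0.61. Aldh1a2, the enzyme that makes retinoic acid in the embryo, read 10.94, 9.98 and 9.39 with IQ1 and 8.49 and 8.66 in control replicates 1 and 3, a difference of 1.53 (SE 0.46, adjusted p = 0.465, limma), and 2.65 at 24 h. Cyp26b1, which degrades retinoic acid, differed by −0.75 at 9 h and 1.02 at 24 h. The lists' part in the Hox values was not tested.

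Markers of the cell types of the explant moved with the treatment to different extents, and none passed over all genes with 5 arrays. The 12 mesenchymal genes, where Hox expression is mostly found, had a median of 0.02 at 9 h and −0.14 at 24 h, with 6 lower and 6 higher at 9 h. Their mean level was 10.00 to 10.49 with IQ1 and 10.36 to 10.43 in control replicates 1 and 3. Pdgfrb, a pericyte and mesenchyme receptor, differed by −1.43 and −1.18 and Pdgfra by −0.65 and −0.84, while Tcf21, a mesenchymal transcription factor, differed by 0.49 and 0.61. All 8 endothelial genes were lower at both times, with medians of −2.44 and −2.47 and mean levels of 5.63 to 6.04 with IQ1 against 8.24 to 8.39 in those controls. The 6 mesothelial genes had medians of 0.88 and 1.63, the 6 smooth muscle genes 0.91 and 1.42 and the 10 epithelial genes −0.08 and 0.19. Medians of the other lists at 9 h were −0.48 for 5 genes of tracheal cartilage, 0.35 for 4 of neural crest and neurons, 0.31 for 5 of cardiac muscle, 1.00 for 5 of macrophages and leukocytes, 0.06 for 3 of erythroid cells and −0.09 for 6 of limb, body wall and hindgut. The part of these shifts in the Hox differences was not tested.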

How the data were processed

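The deposited table holds log2 intensities for 62976 spots on 8 arrays of 1 colour. According to the methods, the authors amplified the RNA as cDNA, labelled it, corrected mean spot signals by NormExp on negative control spots with an offset of 1, took logarithms and quantile-normalised them with limma. This gives all arrays 1 distribution and hides a difference in total signal, and amplifying small amounts of RNA makes weak spots less certain. Spot flags were not used here, so signal over background is unknown, and the number of arrays limits the precision.

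Of the spots, 43941 were named through their accession (33704), listed symbol (9767) or synonym (463), or kept as listed (7), with RefSeq tables of GRCm38.p6, and 8 with a missing value were left out. The brightest spot by mean over 8 arrays stood for each of 24304 genes. The 38 members had 51 spots, 10 members having more than 1. Differences were fitted by the two-sided moderated test of limma 3.58.1 (R 4.3.3), with Benjamini-Hochberg adjustment over all genes and a threshold of 0.05, and tested on simulated data. Values per array are given for members above the median gene, the 3 brightest posterior members, the 4 of smallest p in each fit, and at most 3 genes of each list by p in the 5-array fit. Other members and genes named, such as Hoxc10, Hoxc13, Hoxa13, Hoxd3, Shox2, Foxa1, Krt8, Cdh1 and the noncoding genes, were chosen after their values were seen. The members and lists were chosen with earlier results of these data known. Whether replicate numbers pair the samples could not be decided, and the main fits were unpaired. Settings tried were a filter on dim genes, the spot, the prior, a replicate block, centring, array weights, adding the 24 h arrays and leaving out each array. Brightness without control replicate 2 was added after seeing the data.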

Additional observations from a re-analysis of the deposited data

Results flagged for a closer look

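Hoxb8 differed in opposite directions at the 2 times, by −1.3 at 9 h, where all 3 IQ1 arrays lay below control replicates 1 and 3, and by 0.6 in the pair of arrays at 24 h. The difference between these effects did not pass limma's moderated test (adjusted p = 0.9999). Both values come from a dim spot, and the gene's other spot differed by −0.25 and 0.01.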

How the results depend on the processing

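The count of Hox genes called at 9 h stayed at 0 under every setting run except array weights with 6 arrays, which called 1 (Hoxb1, −1.54, adjusted p = 0.038). The median Hox difference with 5 arrays was −0.44 when dim genes were left out, and −0.34 to −0.14 when each array was left out in turn, and the median at 24 h was −0.75 without dim genes. With 6 arrays the median was 0.09 without dim genes, against −0.23 over all members and −0.31 to −0.05 when each array was left out in turn, and centring moved it to −0.61 and the median of all genes from 0.16 to −0.23. The number of members above the threshold of level was 22 with the lower quartile. Hox counts called were 0 without any one array. With 6 arrays the number of genes called was 0, and it was 3 without control replicate 2 and 233 with array weights. With 5 arrays it was 3, and it was 0 without any further array and with the replicate block, 31 without dim genes, 9 with the mean over spots, 139 with the intensity trend and 55 with the 24 h arrays added.

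Deviations from the group means were not correlated between samples of the same replicate number (r = −0.0036 to 0.0153). The control mean included control replicate 2, which stood apart from all other arrays. These values therefore cannot decide whether the numbers pair the samples. The replicate block gave a median of −0.20 with 5 arrays and −0.23 with 6 and 0 Hox calls. With 6 balanced arrays a block cannot move a difference. With 5 arrays IQ1 replicate 2 has no control of its number. The block then gives the differences found without that array, and it is no separate check of them. Under the block, as without IQ1 replicate 2, the small differences of Hoxa2 (0.23), Hoxa7 (0.023), Hoxb9 (−0.10) and Hoxd12 (−0.16) changed sign with 5 arrays. Hoxb9 also did so with the mean over all spots (−0.25), and Hoxd13 with the 24 h arrays added (0.0044). Leaving out 1 array at a time gave ranges that crossed 0 with 5 arrays for Hoxa2 (−0.32 to 0.23), Hoxa7 (−0.18 to 0.11), Hoxb9 (−0.10 to 0.66), Hoxd12 (−0.16 to 0.32) and Hoxd13 (−0.30 to 0.080), and with 6 arrays for Hoxb2 (−0.92 to 0.095), Hoxb7 (−1.07 to 0.053) and Hoxc5 (−2.60 to 0.32). Array weights with 6 arrays also turned Hoxc5 (0.41). The cause of these changes was not tested. At this number of arrays, differences near 0 and those of dim spots cannot be given a direction.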
